A study of Mus musculus with 16 samples.

Results

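The matrix metalloproteinases (Mmp genes) and their tissue inhibitors (Timp genes) were followed in mouse bone marrow stromal cell cultures, the adherent marrow cells that lay down a mineralized matrix. The members were the rows of the count table whose gene symbol was Mmp2, Mmp3, Mmp10, Mmp11, Mmp13, Mmp14, Mmp16, Timp1, Timp2 or Timp3, which gave 10 of 45796 genes, and all 10 were among the 16430 genes with enough reads to be tested. Bulk RNA sequencing was done on 16 libraries, with 4 libraries for each of 4 genotypes, after 21 days in osteogenic medium with ascorbic acid (50 µg/ml) and beta-glycerophosphate (10 mM). Marrow came from 12-week-old male littermates on a C57BL/6J background, and all 4 genotypes carried the floxed allele (Fgf23 fl/fl). WT cells were Dmp1+/+ without Cre, and Fgf23cKO cells were Dmp1+/+ with the Dmp1-cre transgene. Dmp1KO cells were Dmp1-/- without Cre, and the compound Dmp1KO/Fgf23cKO cells were Dmp1-/- with the transgene. Cre was driven by the Dmp1 promoter, which is active in mature osteoblasts and osteocytes, so Fgf23 was deleted only in cells that had reached that stage, whereas Dmp1 was absent from every cell of the animal. Every genotype with Fgf23 deleted carried Cre and every other genotype lacked it. Fgf23 deletion and the presence of Cre therefore cannot be told apart in these libraries. The study asked what loss of DMP1, a mineral-nucleating matrix protein, and loss of the phosphate-regulating hormone FGF23 do to these cells, separately and together. The number of mice the study names for each genotype is smaller than the number of libraries, so some libraries of a genotype may come from the same animal, and part of the spread behind the p-values may be technical.

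Matrix metalloproteinases are zinc-dependent enzymes that cut collagen and other proteins outside the cell, and most are secreted as inactive proenzymes. In bone, collagenase opens the triple helix of type I collagen, gelatinases degrade the unwound chains, and membrane-anchored members act at the cell surface and activate secreted proenzymes. The Timp proteins bind the active site of these enzymes and block it, and TIMP2 together with membrane-type 1 MMP also takes part in activating the MMP2 proenzyme.

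The total count per library was 61.87 M to 79.46 M (M for mega), and levels are given below as CPM, the count relative to the TMM-scaled library size. Dmp1 was at 41.2 to 109 CPM in the 8 libraries with Dmp1 knocked out and at 329 to 1396 CPM in the 8 others, and Fgf23 was at 0.0128 to 0.0996 CPM in the 8 libraries with Fgf23 deleted and at 0.633 to 6.19 CPM in the 8 others, so each library matched its label. The Dmp1KO/Fgf23cKO group was split. On a scale over 16420 genes, members left out, that placed the WT mean at 0 and the Dmp1KO mean at 1, Dmp1KO/Fgf23cKO libraries 1 and 2 lay at 0.25 and 0.22, below the Fgf23cKO libraries at 0.28 to 0.40, and libraries 3 and 4 lay at 1.06 and 0.97, among the Dmp1KO libraries at 0.90 to 1.07. The summed level of 8 osteoblast markers spanned 30211 to 53636 CPM in WT, 52996 to 65276 CPM in Fgf23cKO, 84549 to 93396 CPM in Dmp1KO, and 38589.8, 30953, 140582 and 102558 CPM in Dmp1KO/Fgf23cKO libraries 1 to 4. Col1a1 held most of this sum, with means of 33054 CPM in WT and 78767 CPM in Dmp1KO, where Ibsp was at 5561 and 5982 CPM. The cultures also held reads of 7 macrophage markers, whose sum was 5075 to 10884 CPM over all libraries. Lyz2 held most of this sum, with means of 5219 CPM in WT and 4927 CPM in Dmp1KO. Csf1r was at 1102 to 1195 CPM in WT and at 692 to 773 CPM in Dmp1KO, whereas Cd68 and Cd14 had higher means in Dmp1KO than in WT. The sum of 8 neutrophil markers, among them Mmp8, was 2.58 to 13.3 CPM, and S100a9 was the marker of that list at 0 in every library. In bulk RNA, fewer cells of a type and less RNA per cell cannot be told apart.

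Mmp13, Mmp3 and Mmp10 lie in the same direction within a cluster on chromosome 9 (mouse build GRCm38, which is mm10), with Mmp13 at 7272514 to 7283333, Mmp3 at 7445822 to 7455975 and Mmp10 at 7502342 to 7510242. The other members are scattered, with Mmp2 on chromosome 8, Mmp11 and Timp3 on chromosome 10, Mmp14 on chromosome 14, Mmp16 on chromosome 4, Timp2 on chromosome 11 and Timp1 on chromosome X. Promoter sequences (250 bases before the annotated start, RefSeq, GRCm38.p6) were matched for 8 of the 10 members, and Mmp2 and Mmp16 were the others. They were searched on both strands for the AP-1 word TGANTCA, bound by Fos and Jun proteins, the RUNX word TGTGGT, the cyclic AMP response word TGACGTCA and the word TATAAA, and no match overlapped another. The clustered genes and Timp1, the member with the most calls below, are shown with matches in capitals, and every sequence runs 5′ to 3′ on the plus strand, which is the coding strand of all 4 genes.
Mmp13 (chr9:7272264-7272513): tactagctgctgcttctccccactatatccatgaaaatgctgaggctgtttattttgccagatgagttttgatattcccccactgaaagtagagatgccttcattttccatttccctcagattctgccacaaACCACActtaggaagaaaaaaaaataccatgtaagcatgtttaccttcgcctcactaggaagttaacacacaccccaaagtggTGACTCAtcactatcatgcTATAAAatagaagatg
Mmp3 (chr9:7445572-7445821): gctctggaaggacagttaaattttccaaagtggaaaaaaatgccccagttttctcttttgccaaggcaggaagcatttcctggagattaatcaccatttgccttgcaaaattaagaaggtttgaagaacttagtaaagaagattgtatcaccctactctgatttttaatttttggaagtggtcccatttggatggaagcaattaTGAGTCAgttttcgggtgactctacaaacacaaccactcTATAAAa
Mmp10 (chr9:7502092-7502341): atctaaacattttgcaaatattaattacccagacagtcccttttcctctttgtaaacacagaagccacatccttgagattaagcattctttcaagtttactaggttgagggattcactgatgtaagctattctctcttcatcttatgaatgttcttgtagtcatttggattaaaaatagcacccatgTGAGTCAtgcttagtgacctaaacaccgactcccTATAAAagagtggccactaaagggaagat
Timp1 (chrX:20869916-20870165): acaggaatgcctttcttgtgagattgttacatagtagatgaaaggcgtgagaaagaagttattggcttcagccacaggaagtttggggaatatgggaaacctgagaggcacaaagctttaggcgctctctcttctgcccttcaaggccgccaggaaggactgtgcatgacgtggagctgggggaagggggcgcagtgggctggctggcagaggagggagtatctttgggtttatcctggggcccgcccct
The promoters of Mmp13, Mmp3 and Mmp10 each held both an AP-1 word, beginning 35, 46 and 63 bases before the start, and TATAAA nearer to it. The RUNX word, read on the other strand as ACCACA, stood in Mmp13 (118 bases before the start) and in Mmp14 (114 bases before the start). None of these words was in the 250 bases before Timp1, Timp2, Timp3 or Mmp11. Over 32851 mouse promoters of the same length, 6.75% held the AP-1 word, 14.0% the RUNX word, 12.4% TATAAA and 1.55% the cyclic AMP response word. A match describes letters in this window and is not a measured binding site.

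In WT cultures the members fell into a highly expressed group and a scarce group. Levels of different genes are compared per kilobase of annotated exon. Mmp13 (588 ± 140 CPM per kb, SD, n = 4), Timp1 (577 ± 14.6), Timp2 (543 ± 25.3) and Timp3 (450 ± 88.9) headed the order, and Mmp13 and Timp3, the first and the fourth, overlapped in their library values. Mmp2 (253 ± 18.05 CPM per kb) and Mmp14 (121 ± 5.63) followed, each below every WT library of the member before it. Mmp16 (4.52 ± 1.11 CPM per kb) and Mmp11 (3.27 ± 0.435) overlapped each other, and Mmp10 (0.950 ± 0.650) and Mmp3 (0.160 ± 0.101) came last without overlapping. In all 3 mutants Timp1 stood first, at 1186 ± 172 CPM per kb in Fgf23cKO, 1345 ± 322 in Dmp1KO and 1065 ± 96.3 in Dmp1KO/Fgf23cKO. The next in order were Mmp13 in Fgf23cKO (854 ± 267), Timp3 in Dmp1KO (372 ± 117) and Timp2 in Dmp1KO/Fgf23cKO (394 ± 153), and the ranges of Timp1 and Mmp13 in Fgf23cKO overlapped.

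**Figure D1:**
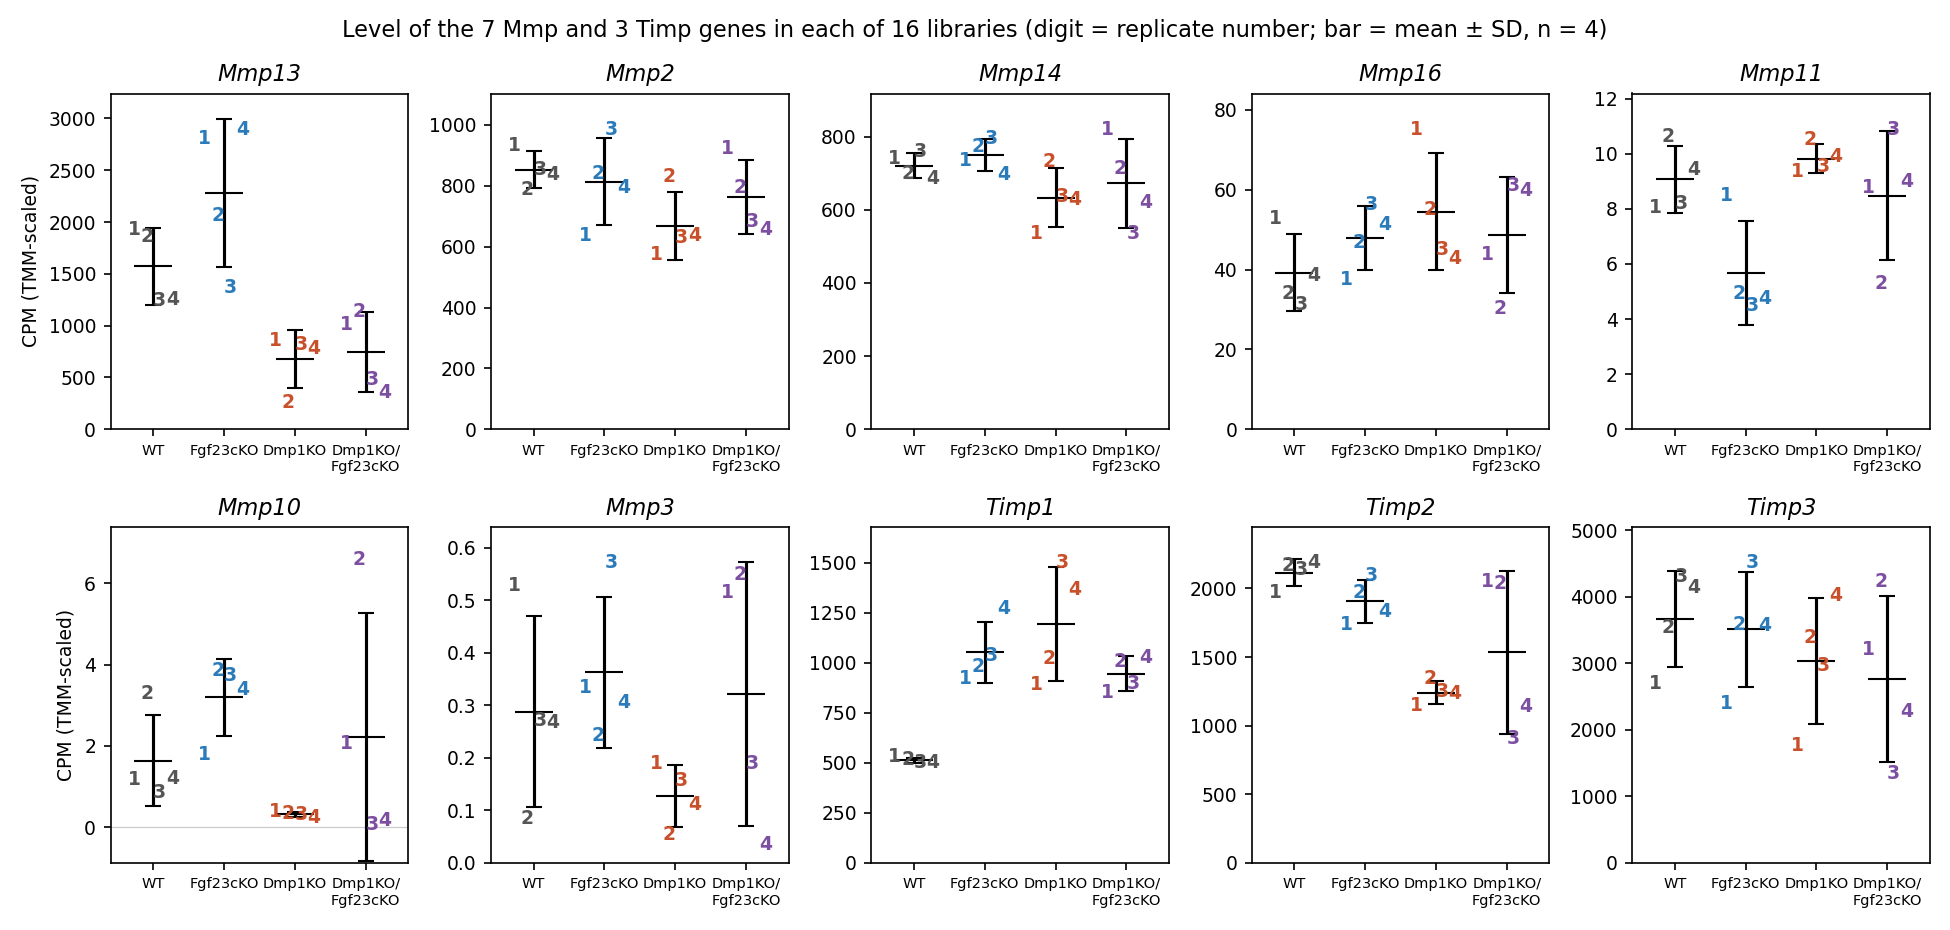
Level of each member (CPM, 1 panel per gene with its own axis) in the 4 genotypes, each digit being the library with that replicate number and each bar the mean ± SD of 4 libraries. Timp1 was at 501 to 529 CPM in WT and at 852 to 1499 CPM in the 12 mutant libraries, and Mmp13 was below 1243 CPM, its lowest value with Dmp1 intact, in all 8 libraries with Dmp1 knocked out.

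Calls below are those with an adjusted p under 0.05 (edgeR's quasi-likelihood test, Benjamini-Hochberg over 16430 genes). In Dmp1KO against WT, 3 of the 10 members were called, with Timp1 higher and Timp2 and Mmp13 lower, beside 33.8% of all tested genes called (18% higher and 15.8% lower). Timp1 was above WT without overlap, as 20% of all genes were, and Timp2, Mmp13 and Mmp10 were below it without overlap, as 19.1% were. In Fgf23cKO against WT only Timp1 was called among the members, and it was higher, beside 11.4% of all genes called (6.68% higher and 4.72% lower), and it was the member that did not overlap WT, as 13.7% of all genes did not from above. In Dmp1KO/Fgf23cKO against WT Timp1 was again the only member called, and higher, beside 11.3% of all genes (7.72% higher and 3.63% lower). There Timp1 lay above WT and Mmp13 below it without overlap, as 10.9% and 7.89% of all genes did. These shares of members are close to those of all genes, so the counts are no result about the family as a group, and the values of the single members follow. The 3 comparisons share the WT libraries. The members' median log2 change was -0.31 in Dmp1KO, 0.17 in Fgf23cKO and -0.10 in Dmp1KO/Fgf23cKO, while the median over all tested genes lay between -0.02 and 0.03 in all 6 comparisons.

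No member was called between Dmp1KO/Fgf23cKO and Dmp1KO, where 0.0183% of all genes were called by edgeR (0.00609% higher and 0.0122% lower). Mmp10 and Timp1 had an unadjusted p under 0.05 there, so 2 members did, and DESeq2 and limma also called 0 members. No member was called between Dmp1KO/Fgf23cKO and Fgf23cKO by edgeR either, beside 1.27% of all genes (0.779% higher and 0.487% lower). Mmp13 was below Fgf23cKO without overlap, as 4.04% of all genes were. There Mmp11 and Mmp13 were the 2 members with an unadjusted p under 0.05, limma called 0 members, and DESeq2 called 1, Mmp13, as lower. The interaction is the log2 change on Fgf23 deletion with Dmp1 knocked out minus that with Dmp1 intact, so a value of 0 means that the separate changes add up. Timp1 was the only member called in it, as negative, beside 7.62% of all genes called (2.9% positive and 4.72% negative).

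**Figure D2:**
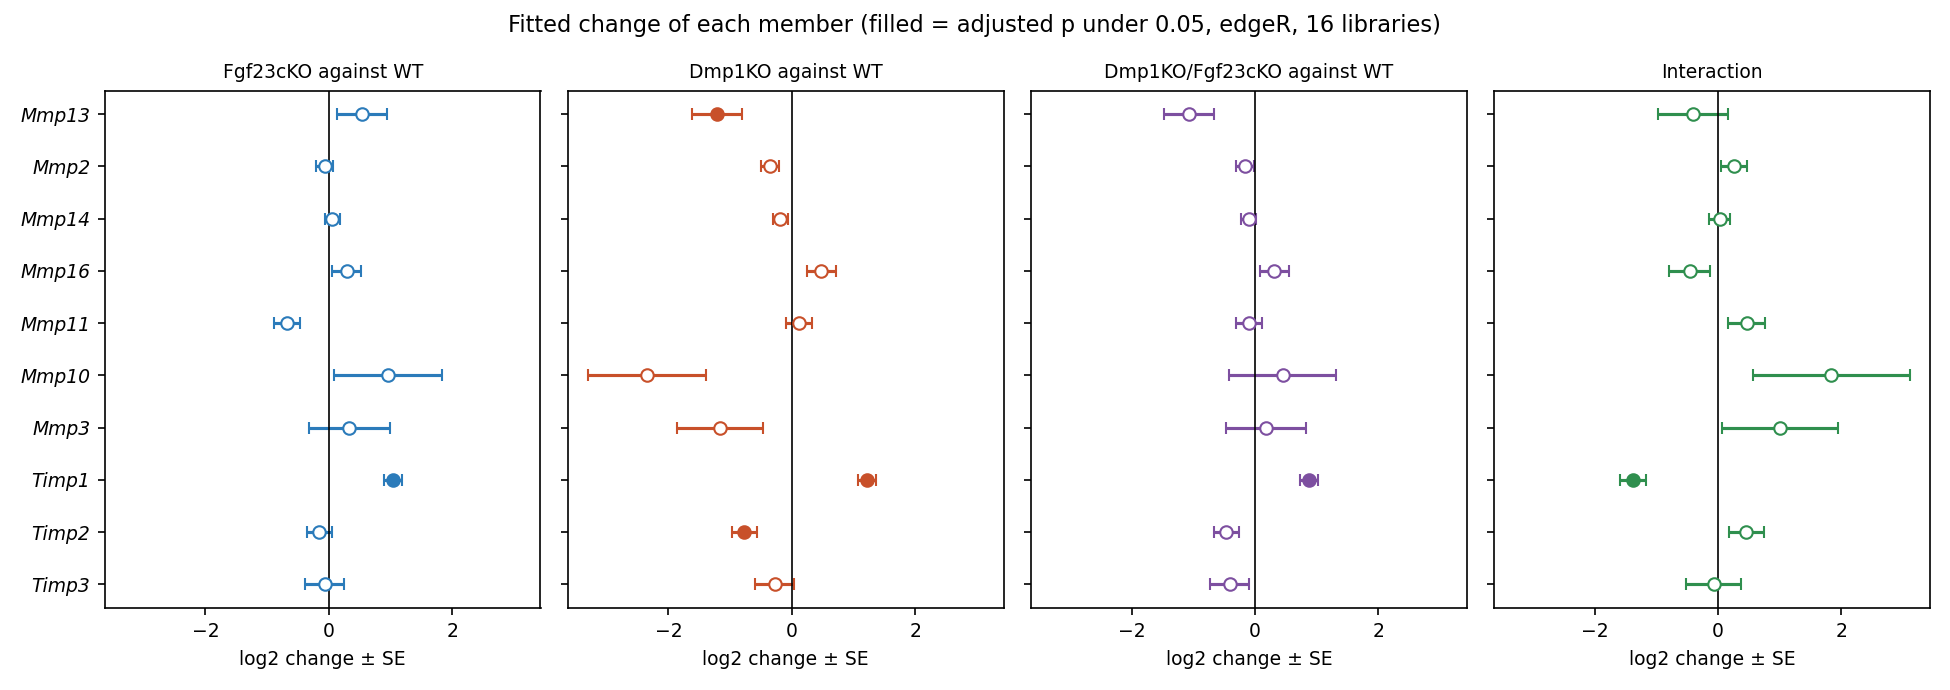
Fitted log2 change ± SE (x axis) of each member (y axis) in each mutant against WT and in the interaction, from 1 edgeR fit of 16 libraries, with filled points for an adjusted p under 0.05. Timp1 is filled in all 4 panels, and Mmp13 (-1.21) and Timp2 (-0.77) are filled in Dmp1KO against WT only.

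Timp1, the secreted inhibitor that binds most MMPs and the MMP9 proenzyme, was the member that changed in every mutant. Its level was 529, 517, 503 and 501 CPM in WT libraries 1 to 4 and 921, 982, 1038 and 1271 CPM in Fgf23cKO. It was 891, 1020.2, 1499 and 1368 CPM in Dmp1KO and 852, 1008, 896 and 1028 CPM in Dmp1KO/Fgf23cKO. The WT libraries lay close together and below all 12 mutant libraries, a separation that 5.35% of all tested genes showed in this direction, and the 3 mutants overlapped each other. Timp1 was 2.33-fold higher than WT in Dmp1KO (log2 1.22 ± 0.15 SE, adjusted p = 7.39e-05), 2.05-fold higher in Fgf23cKO (1.04 ± 0.15, adjusted p = 0.000864) and 1.85-fold higher in Dmp1KO/Fgf23cKO (0.88 ± 0.15, adjusted p = 0.00171). Deleting Fgf23 therefore went with a log2 change of 1.04 in Dmp1-intact cells and of -0.34 ± 0.15 (adjusted p = 0.342) in Dmp1-null cells. The difference between those changes was the interaction, -1.37 ± 0.21 (adjusted p = 0.0028). Timp1 kept all 4 calls in every alternative run, and the interaction ranged from -1.49 to -1.24 with adjusted p-values of 7.31e-08 to 0.00951 over 25 alternatives. Timp1 lies within Syn1 on the opposite strand, and whether the counting used strand is not given in the sources used here. Syn1 had 492 to 899 counts per library against 39376 to 104935 for Timp1, so the Syn1 count was far below that of Timp1 in every library.

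Timp2, which inhibits MMPs and also bridges MMP14 and the MMP2 proenzyme at the cell surface, fell in Dmp1KO. Its level was 1971, 2168, 2140.3 and 2186 CPM in WT and 1735, 1967, 2093 and 1835 CPM in Fgf23cKO, which overlapped. It was 1144, 1344, 1247 and 1231 CPM in Dmp1KO, all below WT, and 2049, 2039, 908 and 1138 CPM in Dmp1KO/Fgf23cKO, where libraries 1 and 2 were at the WT level and libraries 3 and 4 were below every Dmp1KO library. The ratio to WT was 0.587 in Dmp1KO (log2 -0.77 ± 0.20, adjusted p = 0.0098), and this call held in all 26 alternatives, with adjusted p up to 0.0263. Timp2 was at 0.901 of WT in Fgf23cKO (adjusted p = 0.682) and at 0.725 of WT in Dmp1KO/Fgf23cKO (adjusted p = 0.147). The ratio of Timp1 to Timp2 counts within a library, which no scaling changes, was 0.243 ± 0.0174 in WT, 0.555 ± 0.0932 in Fgf23cKO, 0.963 ± 0.227 in Dmp1KO and 0.700 ± 0.287 in Dmp1KO/Fgf23cKO (SD, n = 4). It was 0.268 at most in WT and at least 0.416 in the mutants, so no mutant library reached the WT range.

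Timp3, the inhibitor that stays bound to the matrix and also blocks ADAM proteases, varied within genotypes more than between them. Its level was 2700.5, 3533, 4297 and 4139 CPM in WT and 2393, 3574, 4505 and 3566 CPM in Fgf23cKO. In Dmp1KO it was 1763, 3378, 2957 and 4022 CPM, and in Dmp1KO/Fgf23cKO it was 3211, 4229, 1335 and 2268 CPM. All 4 genotypes overlapped, and the fitted log2 changes against WT were -0.06 ± 0.32 in Fgf23cKO, -0.28 ± 0.32 in Dmp1KO and -0.41 ± 0.32 in Dmp1KO/Fgf23cKO, with adjusted p-values of 0.925, 0.517 and 0.428. Timp3 lies inside Syn3 on the opposite strand, which had 121 to 422 counts per library against 92047 to 363898 for Timp3, and 21.4% of the 50-base stretches of Timp3 transcripts also occurred in transcripts of other genes, most of them Syn3.

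Mmp13, the main interstitial collagenase of rodents and a product of osteoblasts and hypertrophic chondrocytes, was the most abundant of the 7 protease transcripts per kilobase in WT, fell in Dmp1KO, and had its 8 lowest libraries where Dmp1 was knocked out. It was at 1927, 1865, 1243 and 1255 CPM in WT and at 2808, 2059, 1369.7 and 2894 CPM in Fgf23cKO. It was at 855, 261, 821 and 780.1 CPM in Dmp1KO and at 1007, 1139.7, 483 and 359.6 CPM in Dmp1KO/Fgf23cKO. All 8 libraries with Dmp1 knocked out were thus below all 8 with Dmp1 intact, as 0.463% of all tested genes were. This split pools genotypes and was not among the fitted comparisons. The members were chosen with earlier results of these data known, so that share does not measure how rare the pattern is. Mmp13 was the 1 member of 10 with this separation. The ratio to WT was 0.432 in Dmp1KO (log2 -1.21 ± 0.41, adjusted p = 0.0338) and 0.475 in Dmp1KO/Fgf23cKO (-1.07 ± 0.41, adjusted p = 0.102, not called). Against Fgf23cKO the compound mutant was at 0.327 (-1.61 ± 0.41, adjusted p = 0.0617, not called), and the interaction was -0.40 ± 0.57 (adjusted p = 0.70). In Fgf23cKO the ratio to WT was 1.45 (0.54 ± 0.40, adjusted p = 0.427), and the 2 groups overlapped. The Dmp1KO call was lost without WT library 1 or 2 or without Dmp1KO library 2, 3 or 4 (adjusted p up to 0.0769), and the direction was kept in all 26 alternatives.

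Mmp13 fell in Dmp1KO while 6 of the 8 osteoblast markers were called there, all of them higher, beside 18% of all tested genes called higher. The summed chondrocyte markers ranged from 127 to 205 CPM over the WT libraries and from 49.0 to 97.4 CPM over the Dmp1KO libraries, the stromal progenitor markers were 608 to 967 CPM and 358 to 448 CPM, and the smooth muscle markers were 988 to 1517 CPM and 291 to 909 CPM. Called lower were 3 of 6 tested chondrocyte, 4 of 7 progenitor, 4 of 5 smooth muscle and 3 of 7 macrophage markers. In these lists 0 were called higher, and 15.8% of all tested genes were called lower. The lists were not uniform. Sox9 and Matn3 (chondrocyte) and Lepr and Pdgfra (progenitor) had higher means in Dmp1KO, with Pdgfra at 32.3 CPM in WT and 55.8 CPM in Dmp1KO. In Dmp1KO/Fgf23cKO libraries 1 to 4 the chondrocyte sum was 199, 147, 57.6 and 51.8 CPM. The part of these differences in the Timp2 and Mmp13 results was not tested.

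Mmp2, the gelatinase that degrades unwound collagen, and Mmp14, the membrane-type collagenase that activates it, were not called in any mutant against WT. Mmp2 was at 933, 787, 855 and 836 CPM in WT and at 636, 839, 985 and 794 CPM in Fgf23cKO. It was at 576, 832, 629.9 and 638 CPM in Dmp1KO and at 923, 794, 684 and 656 CPM in Dmp1KO/Fgf23cKO. Dmp1KO libraries 1, 3 and 4 were below all WT libraries and library 2 was among them. The log2 change of Mmp2 in Dmp1KO was -0.35 ± 0.15 (adjusted p = 0.0724, not called), and without Dmp1KO library 2 it was -0.47 (adjusted p = 0.0274). With every WT and Dmp1KO library kept, it was called with upper-quartile factors (adjusted p = 0.0492), with the filter of 5 CPM in 4 libraries (0.0431), with only the genotypes compared (0.0272) and in the 3 fits lacking compound libraries (0.0386 to 0.048).

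Mmp14 was at 739, 700.2, 758 and 686 CPM in WT and at 733, 773, 795 and 695 CPM in Fgf23cKO. It was at 535, 731, 637 and 629 CPM in Dmp1KO and at 819, 714, 534 and 619.6 CPM in Dmp1KO/Fgf23cKO. No genotype stood clear of WT, and the fitted log2 changes were 0.06 ± 0.12 in Fgf23cKO, -0.19 ± 0.12 in Dmp1KO and -0.10 ± 0.12 in Dmp1KO/Fgf23cKO. Their adjusted p-values were 0.814, 0.234 and 0.619.

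Mmp16, another membrane-type member that can activate the MMP2 proenzyme, was at 52.9, 34.02, 31.1 and 38.6 CPM in WT and at 37.5, 46.8, 56.3 and 51.2 CPM in Fgf23cKO. It was at 75.1, 54.9, 45.1 and 42.8 CPM in Dmp1KO and at 43.7, 30.2, 60.9 and 59.8 CPM in Dmp1KO/Fgf23cKO. The mutants had the higher means but all overlapped WT, and the log2 change in Dmp1KO was 0.48 ± 0.24 (adjusted p = 0.13, not called).

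The stromelysins Mmp3 and Mmp10, which cut proteoglycans, fibronectin and other non-collagen matrix proteins and can activate other proenzymes, were scarce. Mmp10 was at 1.17, 3.30, 0.862 and 1.21 CPM in WT and at 1.79, 3.86, 3.73 and 3.38 CPM in Fgf23cKO. It was at 0.377, 0.339, 0.314 and 0.248 CPM in Dmp1KO and at 2.06, 6.59, 0.0725 and 0.170 CPM in Dmp1KO/Fgf23cKO, which is 5 to 529 counts per library over the series. All 4 Dmp1KO libraries were below all WT libraries, at 0.196 of WT (log2 -2.35 ± 0.96, adjusted p = 0.0697, not called), while the compound mutant held both the highest and the lowest libraries of the series. DESeq2 called this change (-2.36, adjusted p = 0.0351), as did edgeR fitted on only the genotypes compared (adjusted p = 0.00223) and without Dmp1KO/Fgf23cKO libraries 1 and 2 or 3 and 4 (adjusted p = 0.000436 and 0.00153). In all, 8 of 25 alternatives called it, 1 of them (the fit lacking all 4 compound libraries) chosen after the data were seen.

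Mmp3 was at 0.527, 0.0846, 0.272 and 0.267 CPM in WT and at 0.333, 0.243, 0.571 and 0.304 CPM in Fgf23cKO. It was at 0.189, 0.0542, 0.157 and 0.110 CPM in Dmp1KO and at 0.514, 0.548, 0.189 and 0.0341 CPM in Dmp1KO/Fgf23cKO, on 2 to 44 counts per library. The genotypes overlapped, and the log2 change in Dmp1KO was -1.16 ± 0.69 (adjusted p = 0.20). Mmp3 and Mmp10 shared 140 of their 50-base stretches (8.39% of those of Mmp3 were also found in another gene), so reads could have been divided between them and the lower values of Mmp3 are uncertain.

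Mmp11, also named stromelysin-3 although it is activated inside the cell and cuts few matrix proteins, was at 8.04, 10.6, 8.18 and 9.43 CPM in WT. It was at 8.49, 4.93, 4.48 and 4.75 CPM in Fgf23cKO, at 9.34, 10.5, 9.53 and 9.89 CPM in Dmp1KO and at 8.77, 5.28, 10.9 and 8.99 CPM in Dmp1KO/Fgf23cKO. Fgf23cKO libraries 2 to 4 were below every WT library and library 1 was among them. The log2 change in Fgf23cKO was -0.68 ± 0.22 (adjusted p = 0.0531, not called by edgeR), and DESeq2 called it (-0.68, adjusted p = 0.0197). Without Fgf23cKO library 1 it was -0.94 (adjusted p = 0.00674). Mmp11 overlaps Chchd10 on the opposite strand, which had 150.4 to 458 counts per library beside 322 to 879 for Mmp11, so part of the Mmp11 count could come from Chchd10 if strand was not used.

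Most members followed the split of the Dmp1KO/Fgf23cKO group, and Timp1 did not. Libraries 1 and 2 were both above libraries 3 and 4 in 7 members (Mmp2, Mmp3, Mmp10, Mmp13, Mmp14, Timp2 and Timp3) and both below them in 2 members (Mmp11 and Mmp16), beside 66.7% of all tested genes with no overlap in either direction (33.9% above and 32.8% below). Timp1, at 852 and 1008 against 896 and 1028 CPM, was the member that overlapped.

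With libraries 1 and 2 left out, 5 members were called lower in Dmp1KO/Fgf23cKO against WT. They were Mmp10 (log2 -3.77, adjusted p = 0.000405), Mmp13 (-1.91, adjusted p = 0.00769), Timp2 (-1.06, adjusted p = 1.54e-05), Timp3 (-1.04, adjusted p = 0.0293) and Mmp14 (-0.33, adjusted p = 0.0337). With libraries 3 and 4 left out, none of them was called against WT by edgeR, Mmp13 was at -0.55 (adjusted p = 0.542) and Timp2 at -0.04 (adjusted p = 0.862). Against Dmp1KO, 3 members were then called higher, namely Timp2 (0.73, adjusted p = 0.000174), Mmp10 (3.76, adjusted p = 0.000317) and Mmp3 (2.06, adjusted p = 0.0246).

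Timp1 was called higher than WT in either case (0.90, adjusted p = 0.00107, and 0.87, adjusted p = 0.0122), and its interaction was -1.36 (adjusted p = 0.00598) and -1.40 (adjusted p = 0.000737). The pairs of libraries were seen in the expression data and have no label of their own, so these fits show what each value rests on and compare no groups of the study. Every mean of a single member in the compound mutant given here, apart from that of Timp1, is an average over libraries that stood apart.

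**Figure D3:**
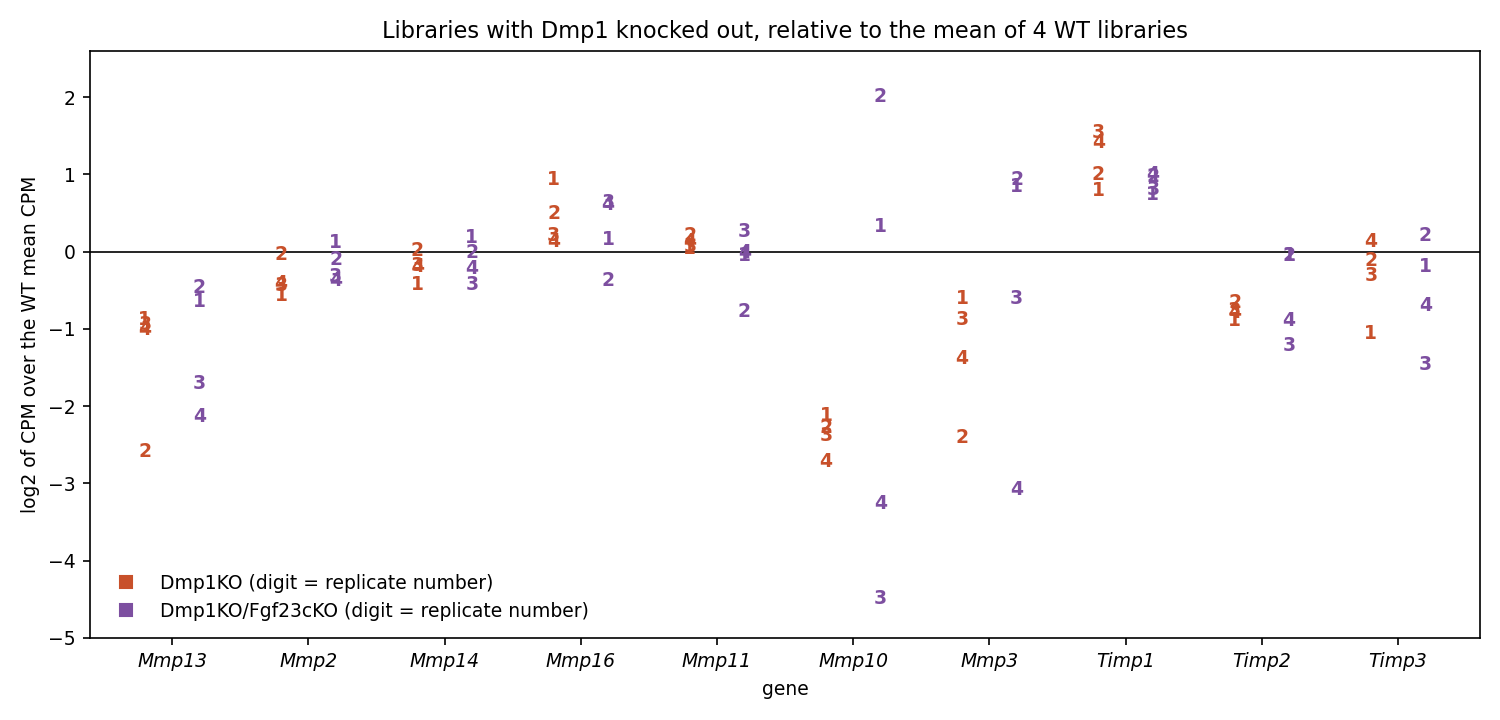
Each library with Dmp1 knocked out as log2 of its CPM over the mean of 4 WT libraries (y axis) for each member (x axis), with digits for replicate numbers and colours for Dmp1KO and Dmp1KO/Fgf23cKO. Digits 1 and 2 of Dmp1KO/Fgf23cKO lie above 3 and 4 in 7 members and below them in 2, and all 8 digits of Timp1 lie above 0.

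The make-up of the inhibitor transcripts shifted towards Timp1. Per kilobase, Timp1 was 36.9% ± 3.32 of the summed 3 Timp genes in WT, 56.3% ± 4.26 in Fgf23cKO, 65.8% ± 4.50 in Dmp1KO and 60.5% ± 10.5 in Dmp1KO/Fgf23cKO (SD, n = 4). The highest WT library was at 41.6% and the lowest mutant library at 51.1%. Mmp13 was 60.0% ± 5.67 of the summed 7 Mmp genes per kilobase in WT, 68.0% ± 10.3 in Fgf23cKO, 43.5% ± 15.5 in Dmp1KO and 42.2% ± 10.4 in Dmp1KO/Fgf23cKO. The Dmp1KO libraries, at 20.5% to 54.0%, were all below the WT libraries, at 54.5% to 65.9%, and the Fgf23cKO libraries, at 54.0% to 76.6%, overlapped them.

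The summed inhibitor level over the summed protease level, per kilobase, was 1.66 ± 0.335 in WT (1.27 to 1.94), 1.77 ± 0.455 in Fgf23cKO (1.30 to 2.38), 3.596 ± 0.698 in Dmp1KO (2.55 to 3.998) and 2.98 ± 0.656 in Dmp1KO/Fgf23cKO (2.36 to 3.90). All 8 libraries with Dmp1 knocked out were above all WT libraries. The Fgf23cKO libraries overlapped WT and Dmp1KO/Fgf23cKO and lay below all Dmp1KO libraries. By CPM without the length correction, the ratio was 2.02 ± 0.481 in WT, 1.71 ± 0.501 in Fgf23cKO, 2.68 ± 0.588 in Dmp1KO and 2.31 ± 0.428 in Dmp1KO/Fgf23cKO, and all genotypes overlapped WT. Since the merged annotated exons of Timp3 (8.14 kb) and Mmp14 (5.96 kb) are long and those of Timp1 (0.888 kb) short, the weight of each gene differs between the scales. These are sums over members chosen with results known, so no test is given, and transcript sums do not measure enzyme activity.

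**Figure D4:**
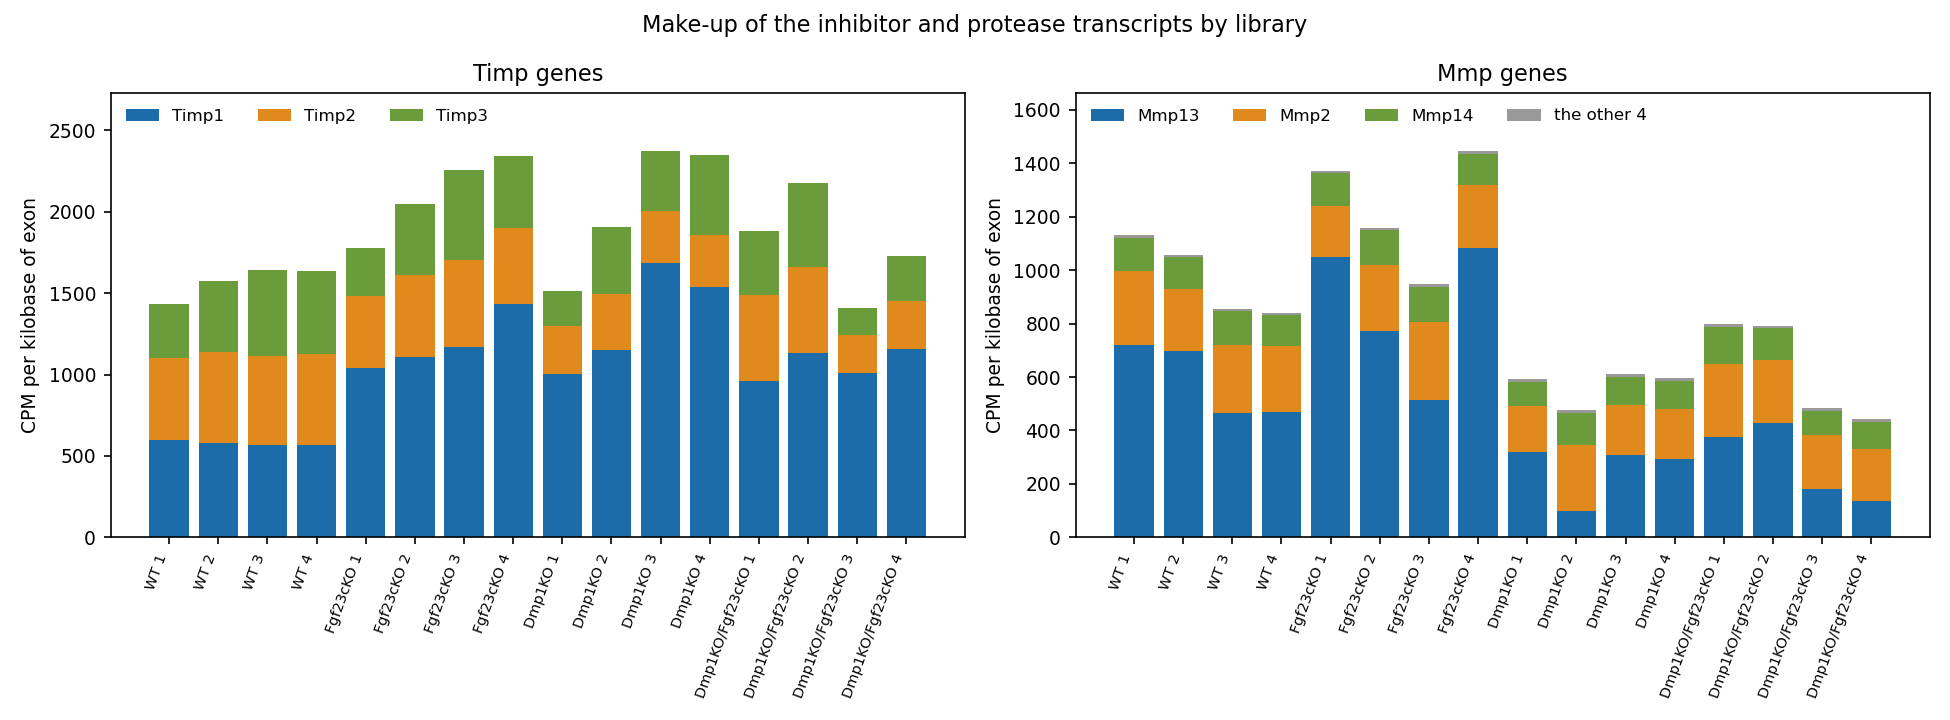
Stacked CPM per kilobase of exon (y axis, from 0) of the 3 Timp genes (left) and of Mmp13, Mmp2, Mmp14 and the other 4 Mmp genes (right) in each of the 16 libraries (x axis). Timp1 makes up 34.5% to 41.6% of the Timp bar in WT libraries and at least 51.1% in the 12 mutant libraries, and the 4 scarce proteases are barely visible.

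Across the 16 libraries, the members that moved most alike by Pearson r of log2 CPM were Mmp14 and Timp2 (0.84), Mmp10 and Timp2 (0.82) and Mmp14 and Mmp2 (0.80), and the most opposed were Mmp10 and Mmp11 (-0.75). Timp1 and Timp2 were at -0.51 and Timp1 and Mmp13 at -0.25. The tested genes most like Timp2 were Smoc2, Cd81 and Axl (each 0.98). Those most like Timp1 were Zpr1, Uqcr11 and Psmc5 (each 0.95), and those most like Mmp13 were Wdr62 (0.92), E2f2 (0.90) and Marco (0.90).

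The closest genes to Mmp10 were Plk3, Rcan1 and Phactr4 (each 0.95), to Mmp2 Dkk3 (0.94), Lrrc75b (0.93) and Olfml2b (0.92), and to Mmp14 Atp8b1 (0.93), Nmnat2 (0.92) and Aebp1 (0.90). For Mmp16 they were Cd1d1 (0.94), Fam46a (0.91) and Col11a2 (0.90), for Timp3 Lrp11 (0.90), Col4a2 (0.90) and Pdlim7 (0.89), for Mmp11 Abcc10 (0.90), Ldoc1l (0.89) and Synrg (0.89), and for Mmp3 Rhbdf1 (0.85), Rapgef6 (0.83) and Zdhhc7 (0.82). The points share genotype and the split of the compound mutant, so these values describe patterns and carry no p.

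Of 17 other Mmp and Timp genes, 13 had enough reads to be tested, and in Dmp1KO edgeR called 5 of them lower and 1 higher (median log2 change -0.70 over the 13). Of all tested genes, 15.8% were called lower there and 18% higher. The counts were the same with limma, and DESeq2 called 7 lower and 1 higher, with Mmp9 and Mmp15 added. Mmp9, also a listed osteoclast marker and not called by edgeR, was at 98.9 ± 81.0 CPM in WT (25.2 to 185) and 9.17 ± 9.38 CPM in Dmp1KO (3.90 to 23.2). The collagenase-type Mmp8, also a listed neutrophil marker, was at 8.05 ± 2.66 CPM in WT and 2.95 ± 1.08 CPM in Dmp1KO (log2 -1.45 ± 0.41, adjusted p = 0.0151). Mmp27 was at 6.09 ± 0.875 and 1.28 ± 0.262 CPM (-2.25 ± 0.51, adjusted p = 0.00483). Mmp19 (-0.80 ± 0.20, adjusted p = 0.00707) and Mmp23 (-0.33 ± 0.10, adjusted p = 0.0261) also fell, and Mmp28 rose (0.68 ± 0.18, adjusted p = 0.00951). Mmp25, a membrane-type member, was called lower on 8 to 24 counts per WT library against 1, 0, 0 and 0 in Dmp1KO, too few for a fold. In Dmp1KO/Fgf23cKO Mmp25 had 19, 10, 7 and 0 counts, and it was the 1 gene of the list that edgeR called in the interaction (adjusted p = 0.0434), where limma called 0 and DESeq2 called 3, Mmp15, Mmp25 and Mmp27, as positive. DESeq2 also called Mmp25 and Mmp27 higher in Dmp1KO/Fgf23cKO than in Dmp1KO, where edgeR and limma called 0 of the list and 5 genes had an unadjusted p under 0.05 in edgeR. In Fgf23cKO against WT edgeR and limma called 0 of the 13 and DESeq2 called 1, Mmp15, as lower, and 1 had an unadjusted p under 0.05 in edgeR. In Dmp1KO/Fgf23cKO against WT all of these tools called 0 of the 13, and 3 had an unadjusted p under 0.05 in edgeR.

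Of 17 tested genes (of 19 listed) that activate, inhibit or clear MMPs, 6 fell and 2 rose in Dmp1KO (median log2 change -0.41). Of all tested genes, 15.8% were called lower and 18% higher in that comparison. The endocytic receptor Lrp1, which clears MMP and TIMP complexes, fell (-0.77 ± 0.15, adjusted p = 0.00141), as did the proprotein convertases Furin (-0.51 ± 0.14, adjusted p = 0.0115) and Pcsk7 (-0.22 ± 0.06, adjusted p = 0.00824). The caveolar protein Cav1 (-1.37 ± 0.32, adjusted p = 0.00569) and the serine protease inhibitor Tfpi2 (-1.33 ± 0.43, adjusted p = 0.0274) also fell, and the MMP inducer Bsg rose (0.54 ± 0.12, adjusted p = 0.00376). In Dmp1KO/Fgf23cKO Lrp1 fell (-0.55 ± 0.14, adjusted p = 0.0239) and the convertase Pcsk6 rose (1.47 ± 0.36, adjusted p = 0.0179). Pcsk6 was at 105, 72.0, 257 and 201 CPM in libraries 1 to 4 of that group and at 31.8 to 84.0 CPM in WT. Library 2 was thus within the WT range, and libraries 3 and 4 were the highest. In Fgf23cKO the cell-surface proteoglycan Sdc4 rose (0.59 ± 0.11, adjusted p = 0.00404) and no other gene of the list was called.

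Of 23 tested ADAM and ADAMTS proteases (of 26 listed), 7 were called in Dmp1KO by edgeR, all of them lower, beside 15.8% of all tested genes called lower. The median log2 change of the 23 was -0.04. The 6 with the smallest adjusted p were Adamts10 (-0.64 ± 0.13), the aggrecanase Adamts5 (-1.07 ± 0.25), Adam19 (-1.03 ± 0.27), Adam9 (-0.59 ± 0.16), Adam33 (-1.61 ± 0.45) and the procollagen peptidase Adamts3 (-1.01 ± 0.33), with adjusted p-values of 0.00205 to 0.0286. Adamts5 also fell in Dmp1KO/Fgf23cKO (-0.95 ± 0.25, adjusted p = 0.0245) and Adamts12 in Fgf23cKO (-0.65 ± 0.16, adjusted p = 0.0152). The Dmp1KO/Fgf23cKO libraries held Adamts5 at 13.5 to 39.2 CPM, which overlapped WT at 35.5 to 47.5 CPM. Of 8 tested genes for collagen breakdown outside the family, the lysosomal protease Ctsl rose in Dmp1KO (0.87 ± 0.19, adjusted p = 0.00376), Fgf23cKO (0.67 ± 0.19, adjusted p = 0.0339) and Dmp1KO/Fgf23cKO (0.99 ± 0.19, adjusted p = 0.00481). The surface protease Fap (-0.47 ± 0.14, adjusted p = 0.0199) and Htra3 (-0.62 ± 0.20, adjusted p = 0.0278) fell in Dmp1KO.

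All 13 listed regulators of Mmp13, among them the Fos and Jun proteins that bind AP-1 words such as that printed above, were tested, and those called against WT by edgeR were higher in the mutant. In Dmp1KO, where Mmp13 fell, 4 rose, namely Fos (0.44 ± 0.15, adjusted p = 0.0324), Jund (0.61 ± 0.11, adjusted p = 0.00139), and the osteoblast transcription factors Sp7 (0.85 ± 0.27, adjusted p = 0.027) and Mef2c (1.04 ± 0.33, adjusted p = 0.025). In Fgf23cKO 5 rose, namely Fos (0.66 ± 0.15), Fosb (1.59 ± 0.35), Junb (0.58 ± 0.11), Jund (0.47 ± 0.11) and the repressor Hdac4 (0.30 ± 0.08), with adjusted p-values of 0.00347 to 0.0224. In Dmp1KO/Fgf23cKO Fos (0.54 ± 0.15, adjusted p = 0.0265) and Jund (0.55 ± 0.11, adjusted p = 0.00751) rose. Junb was lower in Dmp1KO/Fgf23cKO than in Fgf23cKO (-0.46 ± 0.11, adjusted p = 0.0482), as was Hdac4 (-0.37 ± 0.08, adjusted p = 0.0348), and Junb had an interaction of -0.70 ± 0.15 (adjusted p = 0.0141). Of all tested genes, 18% were called higher than WT in Dmp1KO, 6.68% in Fgf23cKO and 7.72% in Dmp1KO/Fgf23cKO. The background shares of called genes given above apply to these lists too, and list members were chosen with earlier results of these data known.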

How the data were processed

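The authors made TruSeq libraries from total RNA, read 50 bases from both ends and processed them in StrandNGS on mm10. The StrandNGS version, its annotation and its strand setting were not given in the sources used here. Values deposited as raw data are expected counts, 33.4% of them not whole, with 23613 of 45796 genes at 0 in all libraries, and 61.87 M to 79.46 M counts per library. The deposited log2 values are those counts after DESeq scaling, with values under 1 read raised to 1 and each gene centred on its median, and they were rebuilt from the counts to within 2.53e-06. Further deposited tables hold the authors' own fold changes and p-values of each mutant against WT and 2 gene sets, and were not used.

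Expected counts were rounded and fitted with edgeR 4.0.16 (quasi-likelihood F test, robust, TMM scaling) in R 4.3.3. Genes tested were the 16430 that filterByExpr retained at a minimum count of 10 and a total of 15. The model had a mean for each genotype over all 16 libraries, from which 6 comparisons were taken, with Benjamini-Hochberg adjustment over all tested genes and a call at an adjusted p under 0.05. The fit was also run on simulated counts with known changes in Dmp1KO only. These did not hold the split of the Dmp1KO/Fgf23cKO group, so they do not test the fit in that setting. SE is the log2 change over the square root of its F value. CPM per kb divides by the length of all annotated exons of a gene, merged over its transcripts. This length can exceed that of the transcript in use, so the order of genes per kb depends on the annotation. Alternatives were DESeq2 1.42.0, limma 3.58.1 on the deposited log2 values, RLE and upper-quartile factors, no filter, a filter of 5 CPM in 4 libraries, only the genotypes compared, leaving out each library, and leaving out pairs of Dmp1KO/Fgf23cKO libraries. Leaving out all 4 was added after the data were seen.

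Groups came from the genotype labels, and replicate numbers follow the order of the samples. No 2 libraries of a genotype agreed within sampling noise. The members and gene lists were chosen with earlier results of these data known. All 10 members are named, with up to 6 called genes of smallest adjusted p per list and comparison, and, for each member, the 3 tested genes of at least 5 CPM and a named symbol with the highest Pearson r of log2(CPM + 0.5). Marker lists covered osteoblasts, osteocytes, stromal progenitors, macrophages, osteoclasts, neutrophils, chondrocytes, adipocytes, endothelial and smooth muscle cells. Their summed ranges over all 16 libraries not given above were 229 to 1725 CPM for osteocytes, 206 to 833 CPM for osteoclasts, 137 to 766 CPM for adipocytes and 3.19 to 10.7 CPM for endothelial cells.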

Additional observations from a re-analysis of the deposited data

Results flagged for a closer look

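In each of the 40 sets of 4 libraries (10 members by 4 genotypes), the highest and the lowest library were set against the other 3 by the gap to its neighbour over the whole range, against Dixon's 95% critical value for 4 samples. Chance flags about 1 in 20 such sets, and 3 of the 40 were past the value. Mmp10 was at 3.30 CPM (3.2991) in WT library 2, against 0.862 to 1.21 CPM in the other 3 (gap over range 0.857). Mmp11 was at 8.49 CPM (8.4936) in Fgf23cKO library 1, against 4.48 to 4.93 CPM in the other 3 (0.889). Mmp13 was at 261 CPM (261.405) in Dmp1KO library 2, against 780.1 to 855 CPM in the other 3 (0.873).

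The change of Timp1 on Fgf23 deletion differed between Dmp1-intact and Dmp1-null cells by the interaction test, at -1.37 on the log2 scale (-1.3745, edgeR, adjusted p = 0.0028).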

How the results depend on the processing

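Of 1508 log2 changes of a member in a comparison under an alternative, 1389 kept both their direction and their side of the threshold, 48 passed it, 6 no longer did and 65 had the opposite sign. Of those 65, 1 was called in either fit: Mmp10 in Dmp1KO/Fgf23cKO against WT went from 0.45 to -3.77 without libraries 1 and 2 of that group. The other 64 were called in neither fit. None of the 65 was in Dmp1KO against WT. Counts of called members changed as follows, and the cause was not tested except where fewer samples or genes entered the fit. In Dmp1KO against WT the count of members called lower was 2, and it was 1 with no filter (Mmp13 at an adjusted p of 0.0534), 3 with DESeq2 (Mmp10 added), 3 with upper-quartile factors or the 5 CPM filter (Mmp2 added), 4 with only the genotypes compared (Mmp2 and Mmp10 added), 4 without compound libraries 1 and 2, 3 and 4, or all 4, and 1 to 3 when single libraries were left out (1 without WT library 1 or 2 or Dmp1KO library 3 or 4, and 3, with Mmp10 added, without compound library 2, 3 or 4). In Fgf23cKO against WT it was 0, and it was 1 (Mmp11) with DESeq2, upper-quartile factors, the 5 CPM filter, only the genotypes compared and each of the 3 fits lacking compound libraries, and 0 to 1 when single libraries were left out (1 without Fgf23cKO library 1 or compound library 2 or 3). In Dmp1KO/Fgf23cKO against WT it was 0, and it was 1 with DESeq2 (Mmp13), 5 without libraries 1 and 2, and 0 to 2 when single libraries were left out (1 without library 1 and 2 without library 2). Against Dmp1KO the count called higher went from 0 to 3 without libraries 3 and 4. Against Fgf23cKO, DESeq2 called 1 lower, the fit without libraries 1 and 2 called 5 lower and 1 higher (Mmp11), and leaving out single libraries gave 0 to 1 in each direction (1 lower without Dmp1KO library 2, and 1 in each direction without compound library 2). In the interaction, 2 were called higher without libraries 3 and 4 (Mmp10 and Timp2) in place of 0.

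Log2 changes of opposite sign that were called in neither fit came from 3 alternatives and from leaving out single libraries. Without compound libraries 1 and 2 they were Mmp3 -1.34 and Mmp11 0.12 for the compound mutant against WT, Mmp2 -0.0052, Mmp3 -0.17, Mmp10 -1.42, Mmp11 0.0097, Mmp13 -0.70, Mmp14 -0.14, Mmp16 0.14 and Timp2 -0.29 for the compound mutant against Dmp1KO, and Mmp3 -0.50, Mmp10 -2.38, Mmp14 -0.20 and Timp2 -0.14 for the interaction. Without compound libraries 3 and 4 they were Mmp2 0.016, Mmp14 0.094, Mmp16 -0.078 and Timp3 0.027 for the compound mutant against WT, Timp3 0.30 for the compound mutant against Dmp1KO, Mmp2 0.077, Mmp3 0.55, Mmp10 0.44, Mmp14 0.033, Mmp16 -0.38, Timp2 0.099 and Timp3 0.084 for the compound mutant against Fgf23cKO, and Mmp13 0.12 and Timp3 0.36 for the interaction. With limma they were Mmp3 -0.25 and Mmp10 -1.16 for the compound mutant against WT, Mmp16 -0.023 for the compound mutant against Fgf23cKO, and Mmp10 -0.092 for the interaction. Leaving out single libraries gave ranges that crossed 0, namely Mmp2 -0.17 to 0.034 and Timp3 -0.21 to 0.083 for Fgf23cKO against WT, Mmp10 -1.07 to 1.046, Mmp11 -0.24 to 0.074 and Mmp3 -0.20 to 0.64 for the compound mutant against WT, Mmp13 -0.14 to 0.37, Mmp14 -0.025 to 0.19, Mmp16 -0.28 to 0.029 and Timp3 -0.42 to 0.10 for the compound mutant against Dmp1KO, Mmp16 -0.11 to 0.19, Mmp2 -0.19 to 0.015 and Mmp3 -0.53 to 0.21 for the compound mutant against Fgf23cKO, and Mmp14 -0.081 to 0.13 and Timp3 -0.35 to 0.16 for the interaction.

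No paired analysis was possible because the labels give no replicate numbers shared between genotypes. Depth limited Mmp3 (2 to 44 counts per library) and Mmp10 (5 to 529), which the 5 CPM filter removed.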
